A study of Homo sapiens with 12 samples.

Results

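A group of 10 genes that license DNA for replication or act at the new fork was followed in RKO cells, a human colon cancer line, during arginine shortage. They are CDC6, CDT1, MCM2, MCM3, MCM4, MCM5, MCM6, MCM7, MCM10 and PCNA. Members were taken by transcript identifier from a list of 14 identifiers for the 10 genes, and 10 of these identifiers, from 9 genes, were among the 19849 transcripts measured. MCM3 was not analysed here. A second PCNA identifier, ENST00000379143, had 0 counts in all 12 libraries, which allows up to 0.0753 CPM in RNA and 0.173 CPM in footprints (3 counts over each assay, counting error only), so 9 transcripts, 1 per gene, carry the values below.

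Wild-type RKO cells were held for 24 hours in arginine-free medium with dialysed serum, supplemented with 12.5 uM arginine (starved) or 400 uM arginine (fed). RNA-seq and ribosome profiling, in which the stretches of mRNA covered by ribosomes (footprints) are sequenced, were run side by side, with 3 libraries for each condition and assay. Nothing in the labels ties the numbered libraries to separate cultures, and the p-values below therefore reflect library-to-library spread that could be purely technical. Total counts ranged from 4670881 to 7967215 per RNA library and from 2063952 to 4364383 per footprint library. The line's epithelial markers were not checked, because the tables carry transcript identifiers without gene names. All values describe a single cell line.

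Replication origins are licensed in G1 phase, when the origin recognition complex, CDC6 and CDT1 load the MCM2 to MCM7 hexamer onto DNA as an inactive double ring. In S phase the ring is activated, with MCM10 as a late-acting factor, and unwinds DNA as the motor of the replicative helicase, while PCNA encircles DNA behind it and tethers the polymerases. The 6 ring subunits act in equal numbers, and genes of this group are classical targets of E2F transcription factors in cycling cells.

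Promoter sequence was examined as a planned description of a feature that the choice of members did not use. It comes from RefSeq (GRCh38.p14) and spans 250 bases before to 50 bases after each gene's annotated start. Entries were matched by symbol for 8 of the 10 genes, and MCM4 and MCM5 are named only. The 8 include MCM3, which has no RNA value here. E2F-type words (TTNNCGC with C or G at each N, on either strand and free to overlap each other) were present in 7 of the 8, MCM2, MCM3, MCM6, MCM7, CDC6, CDT1 and PCNA, against 15.3% of the 27305 genes in the table. Of the 7 with RNA values, 6 held one. The word CCAAT was present in 6 of the 8 and in 5 of the 7 with RNA values, against 39.7% of genes. The word TTTGAA of cell cycle homology regions was present in 0 of the 8, against 18.2%. MCM10 held CCAAT and none of the E2F-type words in this window. With only the 200 bases before the start, 5 of the 8 genes, and 4 of the 7 with RNA values, held an E2F-type word, since those of MCM2 and CDC6 lie just after the start, against 11.1% of genes. The 4 stretches below end at the base before the start (the start listed first, where a gene has more than 1). They are shown because they hold E2F-type words, and capitals mark the words that end before the start. In MCM7 a further word, from -5 to 2, crosses the start and is not marked as such. Another MCM7 word, from -187 to -181, lies outside the stretch. MCM6 holds overlapping words on opposite strands at 2 places, from -151 to -142 and from -89 to -80.
MCM6, chr2:135876444-135876603, minus strand: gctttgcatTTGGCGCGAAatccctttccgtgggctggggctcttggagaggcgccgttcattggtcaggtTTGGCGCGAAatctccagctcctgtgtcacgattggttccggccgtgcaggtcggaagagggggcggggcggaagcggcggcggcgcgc
MCM7, chr7:100101398-100101457, minus strand: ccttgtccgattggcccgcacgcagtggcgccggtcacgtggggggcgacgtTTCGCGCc
CDT1, chr16:88803729-88803788, plus strand: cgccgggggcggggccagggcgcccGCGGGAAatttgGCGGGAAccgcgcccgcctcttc
PCNA, chr20:5126623-5126712, minus strand: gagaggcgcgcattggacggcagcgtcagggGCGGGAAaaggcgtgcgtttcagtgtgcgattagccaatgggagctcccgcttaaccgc
These matches are a description of the letters and not evidence of binding, and the share of all genes beside them was not matched for base composition.

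The RNA of all 9 measured members fell in starved cells. All 9 transcripts were called lower, where a call is a Benjamini-Hochberg adjusted p under 0.05 in the quasi-likelihood test of edgeR. Of the 11572 transcripts tested, 34.1% were called lower. In 8 of the 9 the RNA fell more than 2-fold, as it did for 8.74% of all transcripts tested. The median log2 fold change (starved over fed) was -1.72 over the 9 members and -0.012 over all transcripts. In CPM (counts scaled to the library total), the 3 starved values lay below the 3 fed values in 9 of 9 members, against 41.2% of all transcripts tested. The 9 transcripts summed to 0.0498 ± 0.00412% of RNA counts in starved libraries and 0.164 ± 0.00291% in fed libraries (SD, n = 3 each). These are shares of a library, so they do not give RNA per cell. Fewer cells in a cycle stage that expresses these genes and less RNA in each cell cannot be told apart in bulk samples.

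Both loading factors lost RNA to a similar degree. CDC6 (ENST00000209728), the ATPase that helps the origin recognition complex load MCM rings, had 36.2, 42.5 and 40.9 CPM in starved RNA replicates 1 to 3, against 132, 136 and 156 CPM in fed replicates 1 to 3. The fitted RNA change was -1.72 in log2 units (SE 0.08, edgeR adjusted p = 4.76e-28). CDT1 (ENST00000301019), which brings the MCM hexamer to the origin, had 13.2, 14.9 and 16.4 CPM in starved libraries, against 56.1, 59.1 and 50.3 CPM in fed libraries. Its fitted RNA change was -1.78 (SE 0.11, edgeR adjusted p = 1.04e-22). The starved and fed values of these genes did not overlap, and the 95% confidence intervals of the changes, -1.89 to -1.55 for CDC6 and -2.00 to -1.56 for CDT1, covered much the same range.

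The 5 helicase subunits that could be measured fell by different amounts. MCM5 (ENST00000216122) had 8.33, 11.3 and 14.2 CPM in starved RNA libraries, against 76.4, 67.9 and 64.0 CPM in fed libraries, a log2 fold change of -2.52 (SE 0.12). MCM7 (ENST00000303887) had 77.4, 104 and 87.8 CPM in starved libraries, against 328, 298 and 309 CPM in fed libraries, a log2 fold change of -1.69 (SE 0.08). MCM2 (ENST00000265056), the subunit whose N-terminal tail also binds histones, had 20.9, 34.4 and 29.1 CPM in starved libraries, against 94.4, 95.9 and 90.0 CPM in fed libraries, a log2 fold change of -1.63 (SE 0.10). These 3 subunits were well separated between conditions, and starved replicate 1 was the lowest starved library for each of them.

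MCM4 (ENST00000262105) had 139, 158 and 153 CPM in starved RNA libraries, against 427, 436 and 438 CPM in fed libraries, a log2 fold change of -1.42 (SE 0.07). MCM6 (ENST00000264156) had 63.5, 76.5 and 86.4 CPM in starved libraries, against 144, 156 and 169 CPM in fed libraries. The MCM6 change of -0.94 in log2 units (SE 0.08, edgeR adjusted p = 2.53e-16) was the smallest of the 9 members. MCM6 nevertheless lay among the lower tail of all transcripts, with 9.74% of those tested having a lower value. For MCM5, the subunit with the largest fall, that share was 0.614%. The 95% intervals of MCM5 (-2.76 to -2.28) and MCM6 (-1.10 to -0.78) do not overlap each other or those of MCM2, MCM4 and MCM7, which span -1.84 to -1.28.

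The 2 genes that act after loading fell as well. MCM10 (ENST00000484800), a helicase activation factor that is not part of the ring, had 16.7, 18.4 and 15.2 CPM in starved RNA libraries, against 88.9, 88.8 and 101 CPM in fed libraries. Its log2 change was -2.36 (SE 0.10, edgeR adjusted p = 1.85e-31). PCNA (ENST00000379160), the sliding clamp, had 76.6, 69.0 and 71.0 CPM in starved libraries, against 275, 278 and 291 CPM in fed libraries. The log2 change of PCNA was -1.85 (SE 0.07, edgeR adjusted p = 1.47e-32). MCM5 and MCM10 thus retained 16.2% and 18.0% of their fed mean CPM in starved cells, where PCNA retained 25.7% and MCM6 retained 48.2%.

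**Figure D1:**
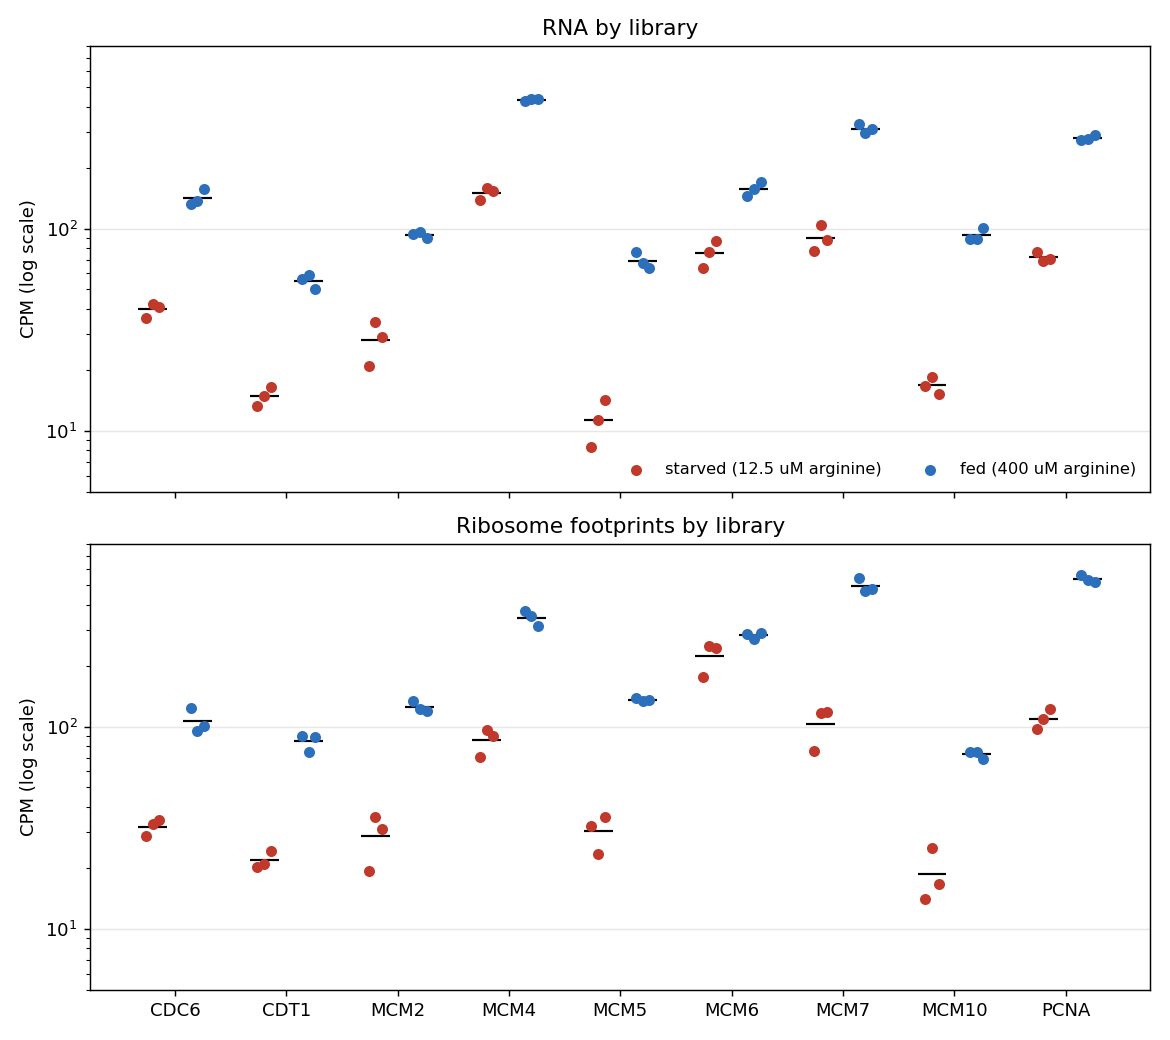
CPM per library on a log axis for the 9 transcripts, RNA above and ribosome footprints below, with starved libraries (red) left of fed libraries (blue) and a black bar at each mean of 3 libraries. Starved points lie below fed points for each gene in both assays, and the gap is narrowest for MCM6 footprints, with means of 224 CPM in starved and 282 CPM in fed libraries.

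Ribosome footprints fell on 8 of the 9 transcripts in the same edgeR test, where 20.9% of the 13457 transcripts tested were called lower. The same 8 fell more than 2-fold, against 7.49% of all transcripts. The median log2 fold change was -2.06 over the members and 0.053 over all transcripts. All 9 members had starved CPM below fed CPM without overlap, against 24% of transcripts tested. Together they took 0.0654 ± 0.0104% of footprint counts in starved libraries and 0.219 ± 0.0119% in fed libraries (SD, n = 3 each). As shares of a library, these values do not give footprints per cell. Starved replicate 1 was the lowest starved footprint library for 8 of the 9 members, and starved RNA replicate 1 for 7 of 9. Without that footprint library the number called lower was again 8, with changes from -2.28 (PCNA) to -1.74 (CDC6) on the log2 scale and -0.26 for MCM6 (edgeR adjusted p = 0.0731).

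Footprints on the loading factors fell about as much as their RNA. CDC6 had 28.7, 32.9 and 34.4 footprint CPM in starved replicates 1 to 3, against 124, 95.0 and 101 CPM in fed replicates 1 to 3. Its footprints changed by -1.78 in log2 units (SE 0.15, edgeR adjusted p = 2.73e-06). CDT1 had 20.1, 20.9 and 24.3 CPM in starved libraries, against 90.0, 75.1 and 89.2 CPM in fed libraries, a log2 fold change of -2.00 (SE 0.15). The groups did not overlap for these genes.

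The subunits MCM2, MCM4, MCM5 and MCM7 lost most of their footprints. MCM7 had 75.3, 117 and 118 footprint CPM in starved libraries, against 542, 467 and 481 CPM in fed libraries, a log2 change of -2.31 (SE 0.17, edgeR adjusted p = 1.03e-06). MCM5 had 32.1, 23.3 and 35.8 CPM in starved libraries, against 138, 133 and 135 CPM in fed libraries, a log2 fold change of -2.20 (SE 0.16). MCM2 had 19.2, 35.7 and 31.2 CPM in starved libraries, against 134, 122 and 119 CPM in fed libraries, a log2 fold change of -2.16 (SE 0.19). The starved MCM2 footprint counts were 45, 101 and 114, so this value carries more counting error than those of MCM7. MCM4 had 70.6, 96.2 and 89.9 CPM in starved libraries, against 373, 351 and 314 CPM in fed libraries, a log2 fold change of -2.06 (SE 0.14).

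MCM6 was the member without a footprint call. It had 177, 251 and 245 CPM in starved libraries, against 286, 271 and 289 CPM in fed libraries. The starved values were lower without overlap, but the footprint log2 fold change of -0.38 (SE 0.14, unadjusted p = 0.0201, edgeR adjusted p = 0.0503) did not pass the threshold. Its 95% interval of -0.69 to -0.071 lay above the intervals of the other 8 members, of which the nearest was that of CDC6 (-2.10 to -1.46). The adjusted p of MCM6 ranged from 0.0327 to 0.184 over 12 alternative fits and was under the threshold in 3 of them: DESeq2 size factors (log2 fold change -0.39, adjusted p = 0.0441), no filter on low counts (-0.42, edgeR adjusted p = 0.042), and leaving out starved footprint replicate 2 (-0.48, edgeR adjusted p = 0.0327).

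PCNA had 97.1, 109 and 122 footprint CPM in starved libraries, against 561, 529 and 518 CPM in fed libraries. Its log2 footprint change of -2.34 (SE 0.12, edgeR adjusted p = 1.73e-07) was the lowest of the 9, and 0.275% of all transcripts tested had a lower value. MCM10 had 14.1, 25.1 and 16.7 CPM in starved libraries, against 75.2, 75.1 and 68.9 CPM in fed libraries, a log2 fold change of -2.01 (SE 0.19). MCM10 rests on 33, 71 and 61 starved footprint counts, the fewest of the group in replicate 1.

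**Figure D2:**
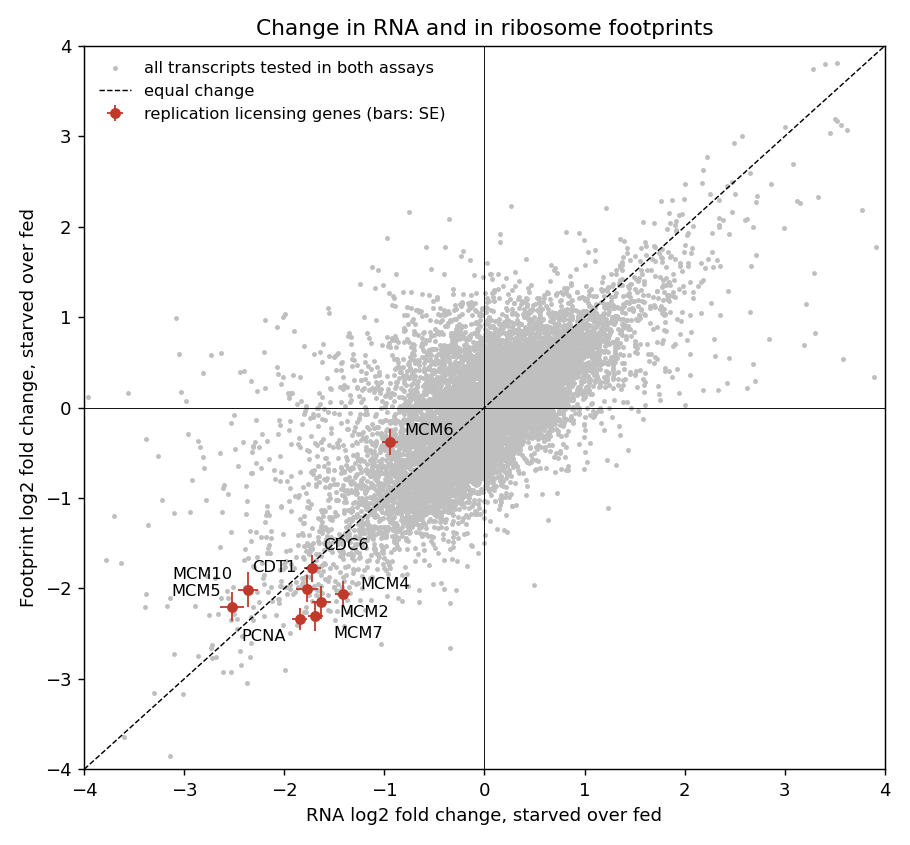
Log2 fold change (starved over fed) in RNA on the horizontal axis and in footprints on the vertical axis for the 11027 transcripts tested in both assays (grey) and the 9 members (red, bars are SE), with a dashed line of equal change. Axes end at 4 in each direction, which leaves out 29 transcripts. The members other than MCM6 form a group between -2.52 and -1.42 in RNA and between -2.34 and -1.78 in footprints, and MCM6 lies at -0.94 and -0.38.

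Translational efficiency relates a transcript's footprints to its RNA, and its change was tested in edgeR as a treatment-by-assay interaction fitted to the 12 libraries and 11027 transcripts. Of the 9 members, 4 passed. MCM6 was called higher, where 11.1% of all transcripts were, and MCM4, MCM7 and PCNA were called lower, where 11.8% were. The median over the members was -0.14 and that over all transcripts -0.023. Each assay was scaled by itself, so an efficiency change is relative to other transcripts, and a shift common to all would not show. The remaining 5 did not pass, with a median SE of 0.20 over all transcripts, so changes well under 2-fold could be missed.

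The efficiency of MCM6 rose by 0.65 on the log2 scale (SE 0.16, 95% interval 0.30 to 0.99, edgeR adjusted p = 0.00762). It remained called in each of 19 alternative fits, with values from 0.52 to 0.87 and adjusted p from 0.000314 to 0.0388. Of all transcripts tested, 87.6% had a lower efficiency change than MCM6. A fall in RNA together with a rise in efficiency was called for 7.35% of the 11027 transcripts, so MCM6 is one of many with this combination. As a ratio of CPM, footprints over RNA was 2.96 in starved and 1.80 in fed cells for MCM6.

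The efficiency of MCM4 fell by 0.56 (SE 0.14, edgeR adjusted p = 0.00605), that of MCM7 fell by 0.53 (SE 0.17, edgeR adjusted p = 0.0309) and that of PCNA fell by 0.40 (SE 0.12, edgeR adjusted p = 0.0233). These 3 calls depended on how abundance was treated. Once a trend with abundance was taken out of every library, no member was called lower: MCM4 was -0.32 (edgeR adjusted p = 0.089), MCM7 was -0.28 (adjusted p = 0.26) and PCNA was -0.16 (adjusted p = 0.385), while MCM6 was 0.87 and still called. With library totals in place of TMM factors, MCM7 (-0.46, edgeR adjusted p = 0.0889) and PCNA (-0.33, adjusted p = 0.0901) were also lost.

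With 1 library left out, the calls of MCM7 and PCNA could miss the threshold while the change stayed of similar size. The efficiency change of MCM7, -0.53 with all libraries, was -0.45 without starved RNA replicate 2 (edgeR adjusted p = 0.0854), -0.54 without starved RNA replicate 3 (0.0564), -0.50 without fed RNA replicate 2 (0.0793), -0.55 without fed RNA replicate 3 (0.0516) and -0.48 without fed footprint replicate 1 (0.0721). That of PCNA, -0.40 with all libraries, was -0.37 without starved RNA replicate 1 (edgeR adjusted p = 0.0617) and -0.39 without fed RNA replicate 2 (0.0593). The calls of MCM4 and MCM6 held with any 1 of the 12 libraries left out.

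Of the members that did not pass, MCM2 had an efficiency change of -0.44 (95% interval -0.89 to 0.0015, edgeR adjusted p = 0.143). MCM5 had 0.41 (-0.038 to 0.85, adjusted p = 0.18) and MCM10 had 0.43 (0.019 to 0.84, adjusted p = 0.123). MCM2 was called lower without starved RNA replicate 1 (-0.64, edgeR adjusted p = 0.0272), and MCM10 was called higher without starved footprint replicate 1 (0.54, adjusted p = 0.0496). The loading factors lay close to 0, with 0.015 for CDC6 (-0.32 to 0.35) and -0.14 for CDT1 (-0.50 to 0.22).

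**Figure D3:**
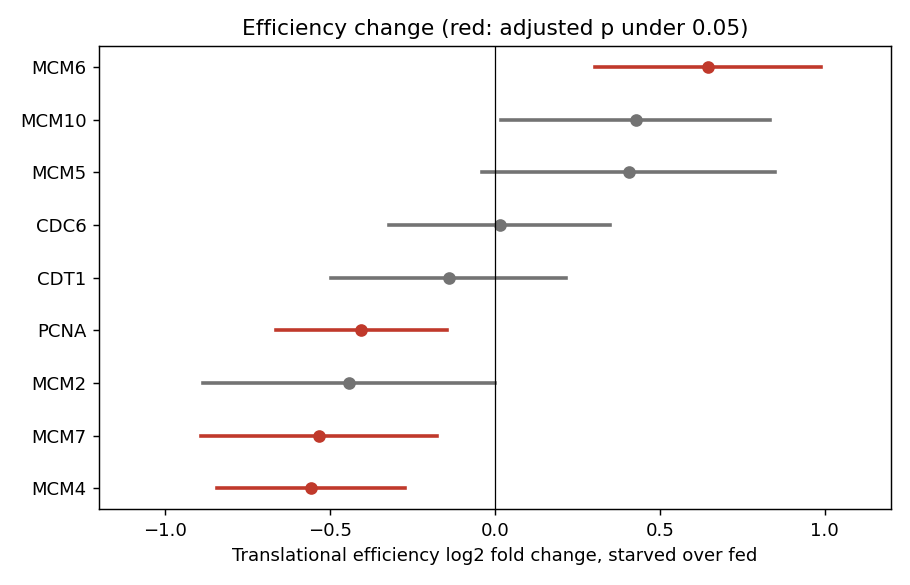
Log2 change in translational efficiency (starved over fed) for the 9 members, with 95% confidence intervals derived from edgeR's F statistic and red for adjusted p under 0.05. MCM6 is at 0.65, and MCM4, MCM7 and PCNA are at -0.56, -0.53 and -0.40.

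The makeup of the ring subunits' counts shows the same values without any scaling between libraries. The counts of MCM2, MCM4, MCM5, MCM6 and MCM7 were summed in each library and each subunit was given as a share of that sum. Shares depend on transcript length, so they are compared between conditions and not between subunits. MCM6 took 47.3%, 48.0% and 47.1% of these footprint counts in starved replicates 1 to 3, against 19.4%, 20.2% and 21.6% in fed replicates 1 to 3. The 95% Clopper-Pearson intervals, which cover counting error only, lay between 43.9% and 50.6% in starved libraries and between 18.5% and 23.2% in fed libraries. In RNA, MCM6 took 20.6%, 19.9% and 23.3% in starved libraries, against 13.5%, 14.8% and 15.8% in fed libraries. The MCM6 share was thus higher in starved cells without overlap in either assay, with a difference of 27.0 percentage points in footprints and 6.55 in RNA. The 3 starved footprint libraries lay within 1 percentage point of each other, although starved replicate 1 had the lowest MCM6 CPM.

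The 5 shares of a library sum to the whole, so the higher MCM6 share lowers the others by construction. MCM7 took 21.7 ± 1.39% of the summed footprint counts in starved and 35.8 ± 1.03% in fed libraries (SD, n = 3 each), and MCM4 took 18.2 ± 0.806% in starved and 25.0 ± 1.36% in fed libraries. In shares recomputed among MCM2, MCM4, MCM5 and MCM7 alone, a step chosen after the data were seen, MCM7 was the one subunit of the 4 whose footprint share did not overlap between conditions. It took 41.3 ± 2.74% in starved and 45.0 ± 1.29% in fed libraries (SD, n = 3 each). MCM4 took 34.6 ± 1.67% in starved and 31.4 ± 1.40% in fed libraries, MCM5 took 12.6 ± 3.86% in starved and 12.3 ± 0.645% in fed libraries, and MCM2 took 11.4 ± 1.69% in starved and 11.3 ± 0.042% in fed libraries (SD, n = 3 each). In RNA, shares among the same 4 did not overlap for MCM4, at 53.9 ± 2.55% in starved and 47.8 ± 1.42% in fed libraries, or for MCM5, at 4.02 ± 0.848% in starved and 7.65 ± 0.582% in fed libraries (SD, n = 3 each). The RNA shares of MCM7 (32.1 ± 1.48% in starved, 34.3 ± 1.12% in fed) and MCM2 (9.98 ± 1.35% in starved, 10.3 ± 0.360% in fed) overlapped (SD, n = 3 each). These shares are a description. No test of MCM6 against the other subunits was made.

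**Figure D4:**
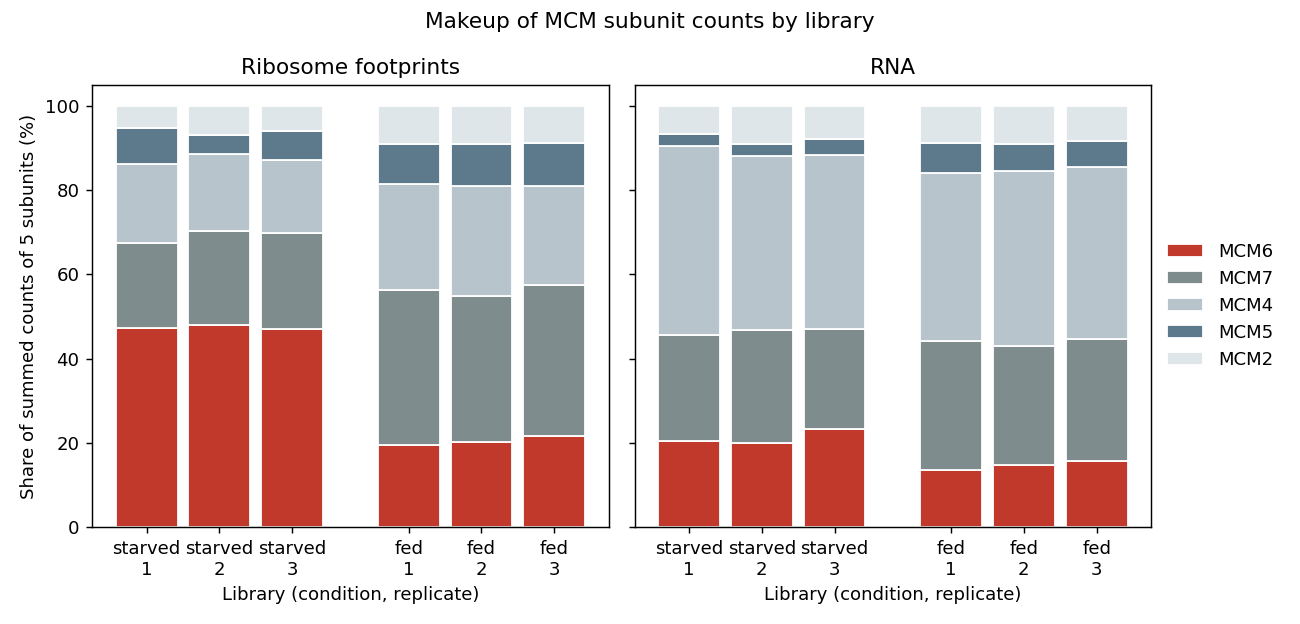
Share of each subunit in the summed counts of MCM2, MCM4, MCM5, MCM6 and MCM7, in percent, for each footprint library (left panel) and RNA library (right panel), starved left of fed. The MCM6 block (red) reaches 47.1% to 48.0% in starved and 19.4% to 21.6% in fed footprint libraries.

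The ratio of footprint CPM to RNA CPM orders the members by footprints carried per unit of RNA. Transcript length cancels in this ratio only if both assays were counted over the same region, which the sources used here do not give. In starved cells MCM6 (2.96) and MCM5 (2.72) came first, followed by PCNA (1.51) and CDT1 (1.47), then MCM7 (1.14), MCM10 (1.08), MCM2 (1.01), CDC6 (0.802) and MCM4 (0.567). In fed cells MCM5 (1.96), PCNA (1.90) and MCM6 (1.80) were highest, followed by MCM7 (1.59), CDT1 (1.54) and MCM2 (1.34), with MCM4 (0.797), MCM10 (0.787) and CDC6 (0.749) lowest. On the log2 scale the SE of these ratios was between 0.10 and 0.34 in starved and between 0.043 and 0.14 in fed cells. Most neighbours in either order are therefore not separated. In fed cells the step between MCM2 (log2 ratio 0.42, SE 0.06) and MCM4 (-0.33, SE 0.07) is larger than these errors. The widest starved step, from MCM5 (1.44, SE 0.29) to PCNA (0.59, SE 0.10), is larger than these errors too. So is the next widest, from CDC6 (-0.32, SE 0.11) to MCM4 (-0.82, SE 0.15).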

How the data were processed

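Counts of RNA and footprint reads were deposited by the authors as whole numbers for each Ensembl transcript, in 1 table per assay and not normalized, per the file headers and values. Per the labels' protocols, a TruSeq v2 kit was used for RNA, and RiboCop removed ribosomal RNA. The submitters' processing notes name STAR, cutadapt, UMI-tools, DESeq2 and GRCh38.p13. The counting tool, the counted region and the handling of multi-mapping reads were not given in the sources used here. The RNA kit does not mark strand, so reads of overlapping antisense genes cannot be told apart from the members' reads. Whether reads of PCNA pseudogenes were kept apart from those of PCNA is not known either.

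Gene names come from the member list, since 0 transcript identifiers matched the gene tables. Every member was named whatever its values, beside the 2 transcripts nearest to the members' median changes. Members, lists and tests were chosen with earlier results of these data known. Tests used edgeR 4.0.16 under R 4.3.3: low counts removed by filterByExpr, TMM factors, a two-sided quasi-likelihood F test and Benjamini-Hochberg adjustment, checked on simulated counts. DESeq2 1.42.0 was an alternative. Each assay was fitted alone, and efficiency as an interaction over 12 libraries with TMM factors within each assay. The SE of a fitted change is its absolute log2 value over the square root of the F statistic. Intervals of these changes are this SE times a t quantile. Such an SE is unstable for changes near 0: for CDC6 efficiency it was 0.161 in the main fit and 0.084 with DESeq2 size factors. CPM are counts over library totals. Variation between libraries of a group was 5.75% in RNA and 13.7% in footprints (square root of the common dispersion). Replicates differed by a chi-square of 2.07 to 7.73 per degree of freedom, so none was counted as a duplicate. Same-numbered libraries were not paired in the main tests. The list of other replication genes, the marker check and levels per protein length were not analysed here.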

Additional observations from a re-analysis of the deposited data

Results flagged for a closer look

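For 4 members the change in footprints differed from the change in RNA by the interaction test in edgeR. The difference (footprints minus RNA, log2) was 0.647 for MCM6, -0.558 for MCM4, -0.532 for MCM7 and -0.404 for PCNA. The values for MCM4, MCM7 and PCNA lost their calls once an abundance trend was removed, and that for MCM6 did not.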

How the results depend on the processing

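All 9 RNA calls held in 12 of 12 alternatives, and the 8 footprint calls in 12 of 12, where MCM6 made a ninth in 3. Members with lower efficiency numbered 3, but 1 with library totals alone, 0 with the abundance trend removed and 1 to 3 with a library left out; members with higher efficiency numbered 1, and 1 to 2 with a library left out. The cause was not tested. The efficiency of CDC6, near 0, turned to -0.00019 with DESeq2 size factors, to -0.077 without a filter on low counts, and ranged from -0.087 to 0.13 with a library left out. Library totals alone shifted the median RNA change over all transcripts to -0.12. Whether same-numbered libraries share a culture is not stated. Their deviations correlated between -0.188 and 0.127, which with 3 libraries per group cannot decide it, so pairing entered only as an alternative. With the replicate block, 3963 transcripts rose and 3994 fell in RNA, 2149 and 2507 in footprints, and 1136 and 1175 in efficiency, with 9, 8 and 3 members called lower and 1 with higher efficiency. A replicate block by culture gave 1208 and 1285 efficiency calls and added a call for MCM2 (-0.47, adjusted p = 0.0315). The lowest starved counts were 33 for MCM10 and 45 for MCM2. Levels per protein length could not be computed, so the planned comparison of subunits was not run. The MCM6 share, added after the data were seen, was 47.2% to 47.6% of starved and 19.8% to 20.9% of fed footprints with a replicate left out.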

Other observations

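The abundance limit was a mean log2 CPM of 4 or more in RNA and in footprints, which 7120 other transcripts met. The 2 whose changes lay nearest to the members' median pair (-1.72 in RNA, -2.06 in footprints) were ENST00000505337 and ENST00000296273. The distance was measured over 2 log2 fold changes, each from 6 libraries. ENST00000505337 had log2 fold changes of -1.68 in RNA and -2.07 in footprints, and ENST00000296273 had -1.76 and -2.07. The tables do not pair these identifiers with gene names.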
